A study of Homo sapiens with 4 samples.

Results

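The genes described here are 10 secreted signals of inflammation: the chemokine genes CXCL1, CXCL2, CXCL3, CXCL5, CXCL16 and CCL20 and the cytokine genes IL6, LIF, IL1A and IL1B. They were taken by symbol from the rows of the expression table that carry an Ensembl gene identifier, and each symbol matched 1 row, giving 10 of 53777 genes. Expression was measured by RNA sequencing of total RNA in NUGC3, an established cell line from a human gastric cancer. The control cells, with 2 libraries, were transfected with a scramble sequence. NIPBL knockdown also had 2 libraries, 1 with short hairpin 1 and 1 with short hairpin 7 against NIPBL, the gene of the factor that loads cohesin onto chromosomes. The labels of all 4 libraries carry the letters DOX, which they do not explain, and scramble 2 is named like scramble 1 plus a suffix that may mark a repeat. Separate cultures are named nowhere, so p-values reflect the spread among these 4 libraries alone, and that spread may be technical.

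Chemokines are small secreted proteins that draw leukocytes along a gradient. CXCL1, CXCL2, CXCL3 and CXCL5 attract neutrophils through the receptor CXCR2, CCL20 attracts cells that carry CCR6, and CXCL16 is made as a membrane protein whose receptor is CXCR6. IL6 and LIF signal through receptors that share the subunit gp130, encoded by IL6ST, whereas IL1A and IL1B signal through IL1R1 and are held back by the antagonist IL1RN and the decoy receptor IL1R2. Many epithelial tumour cells make these proteins themselves. Their genes are induced by NF-kB and AP-1 transcription factors, and their messengers tend to be short-lived, since proteins such as ZFP36 bind AU-rich elements in the 3′ untranslated region (UTR) and hasten decay.

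CXCL1, CXCL2, CXCL3 and CXCL5 lie in 1 cluster on chromosome 4, and the first 3 of these are near copies of each other upstream of their starts, so these sequences are shown first. RefSeq promoters on GRCh38.p14 were found for 8 of the 10 genes. In the 120 bases before the RefSeq start, the alignments of CXCL1 with CXCL2, CXCL1 with CXCL3 and CXCL2 with CXCL3 were 93.4%, 90.8% and 88.5% identical, while CXCL5 was between 52.9% and 54.0% identical to these genes. The NF-kB consensus, a sequence of 10 bases, was searched on both strands, and its matches are in capitals below. In CXCL1, CXCL2, CXCL3 and CXCL5 a match on each strand overlaps the other, which gives 11 bases in capitals. The sequences read 5′ to 3′ on the strand of the gene and end at the base before the start.
CXCL1, chr4:73869273-73869392, strand +: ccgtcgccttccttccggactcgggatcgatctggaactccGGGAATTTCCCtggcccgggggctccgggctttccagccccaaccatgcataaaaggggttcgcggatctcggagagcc
CXCL2, chr4:74099196-74099315, strand -: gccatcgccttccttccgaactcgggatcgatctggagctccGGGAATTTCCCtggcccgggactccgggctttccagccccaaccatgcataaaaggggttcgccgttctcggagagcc
CXCL3, chr4:74038690-74038809, strand -: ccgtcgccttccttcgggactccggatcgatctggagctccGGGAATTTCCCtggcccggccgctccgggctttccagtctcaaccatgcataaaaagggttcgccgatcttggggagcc
CXCL5, chr4:73998678-73998797, strand -: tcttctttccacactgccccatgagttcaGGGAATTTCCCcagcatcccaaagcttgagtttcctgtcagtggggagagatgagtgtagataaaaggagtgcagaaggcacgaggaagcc
CCL20, chr2:227813722-227813841, strand +: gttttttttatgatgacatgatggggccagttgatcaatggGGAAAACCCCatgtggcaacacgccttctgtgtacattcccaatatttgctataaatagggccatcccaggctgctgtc
IL6, chr7:22727080-22727199, strand +: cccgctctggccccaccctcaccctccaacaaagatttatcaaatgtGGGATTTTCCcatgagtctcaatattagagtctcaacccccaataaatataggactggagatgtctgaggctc
IL1B, chr2:112836780-112836899, strand -: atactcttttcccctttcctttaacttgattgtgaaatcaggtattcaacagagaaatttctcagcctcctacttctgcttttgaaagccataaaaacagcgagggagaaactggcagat

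Counted from the start, the match on the gene's strand ran from -79 to -70 in CXCL1 and CXCL3, from -78 to -69 in CXCL2, from -91 to -82 in CXCL5 and from -73 to -64 in IL6. In CCL20 the match was on the other strand, from -79 to -70. In all, 6 of the 8 genes held a match in these 120 bases, against 4.98% of 35116 RefSeq promoters, and IL1A and IL1B held none in the window. The AP-1 sequence TGANTCA, which reads the same on both strands, occurred within 120 bases of a start in IL1A alone of the 8 genes, against 3.34% of promoters. The capitals read the same in CXCL1, CXCL2, CXCL3 and CXCL5, whose levels in the knockdown libraries are set side by side below.

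NIPBL, which checks the labels, was at 23.92 and 23.11 FPKM in scramble, 7.27 FPKM with hairpin 1 and 9.17 FPKM with hairpin 7, and it fell (limma, adjusted p = 0.0218). The unit, FPKM, corrects for the length of a transcript, so levels of different genes can be set side by side. The values of rows with an Ensembl identifier summed to between 618833 and 685330 FPKM per library, lowest with hairpin 7, and the read depth is unknown. All 8 markers of gastric epithelial cells had a mean of at least 1 FPKM, with summed values from 5290 to 6220 FPKM. Of 10 markers of macrophages, monocytes and neutrophils, cells that also make such cytokines, 7 were below 1 FPKM in every library. The blood cell marker PTPRC and the Fc receptor gene FCGR3A were listed at 0 in all 4. The other members of that list were CD68, at 12.41, 17.08, 31.48 and 37.71 FPKM in scramble 1, scramble 2, hairpin 1 and hairpin 7 (limma, adjusted p = 0.0527), S100A8 and S100A9, and the summed list ranged from 4445 to 4497 FPKM in scramble and from 2997 to 6145 FPKM in knockdown libraries. The part of CD68, S100A8 and S100A9, which epithelial cells can also express, in the results below was not tested. Of 6 lymphocyte markers all were below 1 FPKM, of 6 fibroblast markers COL1A1 alone was not, between 5.75 and 9.39 FPKM, and all 4 endothelial markers with a row were below 1 FPKM.

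All 10 genes were expressed in the scramble libraries. IL1A, at 964.81 and 971.74 FPKM, ranked 100 among 20269 protein-coding genes in both, IL1B ranked 114 and 111, and CXCL1 ranked 115 in both. The order of the scramble means was IL1A at 968 ± 4.90, IL1B at 889 ± 6.97, CXCL1 at 868 ± 7.80, CCL20 at 325 ± 9.40, CXCL5 at 188 ± 0.255, CXCL2 at 137 ± 0.311, LIF at 57.2 ± 0.354, CXCL3 at 45.7 ± 0.580, CXCL16 at 36.0 ± 1.87 and IL6 at 15.8 ± 1.27 FPKM (SD, n = 2). No neighbours in this order overlapped. In the knockdown libraries CXCL1 came first at 752 ± 268 FPKM, ahead of IL1A at 641 ± 153 and IL1B at 452 ± 142, and CXCL2 at 367 ± 45.6 lay far above CXCL5 at 197 ± 30.1 (SD, n = 2). There the ranges of most neighbours overlapped, the exceptions being CXCL2 against CXCL5 and LIF against IL6. The 10 genes together summed to 3509 and 3551 FPKM in scramble, 3691 FPKM with hairpin 1 and 2574 FPKM with hairpin 7.

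**Figure D1:**
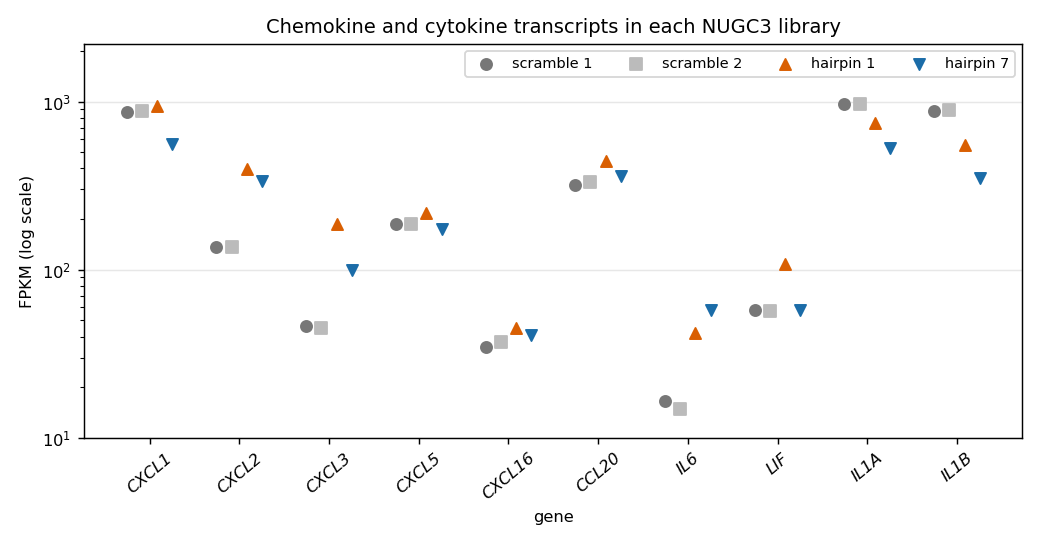
FPKM (log axis) of the 10 chemokine and cytokine genes, 1 point per library: scramble 1 and 2, hairpin 1 and hairpin 7 against NIPBL. The hairpin points of CXCL2, CXCL3 and IL6 lie above both scramble points, and those of IL1A and IL1B lie below both.

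Of the 10 genes, 2 passed the test of knockdown against scramble, CXCL2 and IL6, both higher (limma on log2(FPKM + 1), adjusted p under 0.05), where 2.56% of the 12834 genes tested passed in either direction 1.45% were higher and 1.11% lower. All 10 entered the test by their scramble level alone. At an unadjusted p under 0.05 there were 3 higher and 2 lower, against 26.4% of all genes. The median log2 change of the 10 genes was 0.28, with 7 above 0 and 3 below, beside a median of -0.01 over all genes tested. Both hairpins lay above both scramble libraries for 6 genes and below both for 2, shares of the 10 genes to be read against 29.5% and 30.8% of all genes. Both together are 8 of the 10 genes, beside 60.3% of all genes. The genes above include LIF, whose hairpin 7 library differed from the scramble mean by a log2 difference of only 0.02. The gap between groups reached 1.5-fold, taken as a log2(FPKM + 1) difference, for 3 genes above (CXCL2, CXCL3 and IL6) and 1 below (IL1B), against 3.32% and 2.28% of all genes. As libraries of whole cultures, these data cannot tell fewer cells that make a transcript from less of it per cell.

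CXCL2 was at 136.55 and 136.99 FPKM in scramble, 399.68 FPKM with hairpin 1 and 335.16 FPKM with hairpin 7. Both hairpins were high and far outside the narrow scramble range. The ratio of means was 2.69, and the log2 change was 1.41 ± 0.12 (SE, limma, adjusted p = 0.0190). Its rank among protein-coding genes moved from 631 and 617 in scramble to 212 with hairpin 1 and 216 with hairpin 7.

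CXCL3, the next gene of the cluster, was at 46.14 and 45.32 FPKM in scramble, 187.98 FPKM with hairpin 1 and 99.17 FPKM with hairpin 7. Both hairpins were high, and hairpin 1 was the higher by far. The ratio of means was 3.14, larger than that of CXCL2, but the hairpins differed more from each other and the gene did not pass (log2 change 1.56 ± 0.31, SE, limma, adjusted p = 0.0722).

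CXCL1 behaved differently. It was at 862.69 and 873.72 FPKM in scramble, 941.76 FPKM with hairpin 1 and 562.34 FPKM with hairpin 7, so the hairpins lay on opposite sides of the scramble libraries and the groups overlapped. Its log2 change was -0.25 ± 0.26 (SE, limma, adjusted p = 0.568). CXCL5 showed the same order with smaller distances, at 187.61 and 187.97 FPKM in scramble, 218.18 FPKM with hairpin 1 and 175.65 FPKM with hairpin 7 (log2 change 0.06 ± 0.13, SE, limma, adjusted p = 0.808). Hairpins on opposite sides of both scramble libraries were seen in 19.0% of all genes tested.

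CXCL8, a neutrophil chemokine of the same cluster and the only tested one of 12 further CXC chemokines, was at 473.57 and 483.84 FPKM in scramble, 861.86 FPKM with hairpin 1 and 759.94 FPKM with hairpin 7. Both hairpins were high, while the adjusted p missed the threshold (log2 change 0.76 ± 0.12, SE, limma, adjusted p = 0.0518). It passed when the pseudocount was 0.1, the minimum mean 5 FPKM, the libraries scaled to the same sum or quantile normalized (limma, adjusted p = 0.0494, 0.0454, 0.0315 and 0.0175). With no mean trend, robust eBayes or no filter on low values it did not pass (limma, adjusted p = 0.0679, 0.0545 and 0.147). Of the summed FPKM of CXCL1, CXCL2, CXCL3, CXCL5 and CXCL8, CXCL1 made up 50.5% and 50.6% in the scramble libraries, 36.1% with hairpin 1 and 29.1% with hairpin 7. The share of CXCL2 was 8.0% and 7.93% in scramble, 15.3% with hairpin 1 and 17.4% with hairpin 7. The summed FPKM of these 5 genes was 1707 and 1728 in scramble, 2609 with hairpin 1 and 1932 with hairpin 7. Since RSEM divides reads that fit several genes, the split among CXCL1, CXCL2 and CXCL3 is uncertain for reads from sequence that they share. Of the windows of 50 bases in the CXCL2 transcript (GENCODE 29), 5.1% occur unchanged in CXCL1 and 4.6% in CXCL3. Of those of CXCL5, 0.0% occur in CXCL1, CXCL2 or CXCL3.

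**Figure D2:**
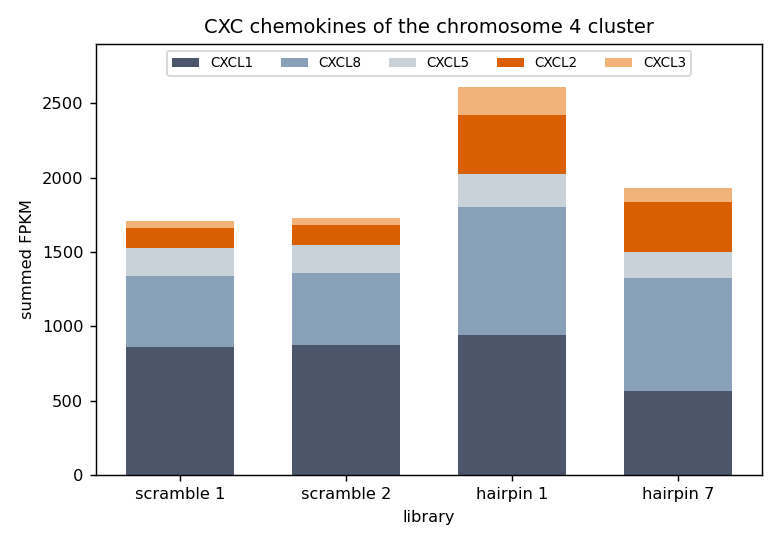
Summed FPKM of 5 CXC chemokine genes of the chromosome 4 cluster in each library, stacked by gene from 0. The segment of CXCL1 is the tallest in the scramble libraries, at 50.5% and 50.6% of the sum, and shorter than that of CXCL8 with hairpin 7, at 29.1% against 39.3%.

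The remaining chemokines are CCL20 and CXCL16. CCL20, the ligand of CCR6, was at 318.50 and 331.79 FPKM in scramble, 445.65 FPKM with hairpin 1 and 360.54 FPKM with hairpin 7 (log2 change 0.30 ± 0.14, SE, limma, adjusted p = 0.241). CXCL16 was at 34.70 and 37.34 FPKM in scramble, 45.19 FPKM with hairpin 1 and 40.82 FPKM with hairpin 7 (log2 change 0.25 ± 0.10, SE, limma, adjusted p = 0.214). In both genes the groups did not overlap and neither passed. CXCL16 overlaps MED11 on the other strand, a gene at 10.23 to 13.23 FPKM. Whether reads of the overlap were told apart is unknown, because the strand setting is not given.

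IL6 was at 16.68 and 14.89 FPKM in scramble, 41.88 FPKM with hairpin 1 and 57.53 FPKM with hairpin 7, so both hairpins were high and hairpin 7 the higher. The ratio of means was 3.15, and the log2 change was 1.58 ± 0.18 (SE, limma, adjusted p = 0.0304). With no filter on low values 1 of 25230 genes passed, and CXCL2, IL6 and NIPBL did not (limma, adjusted p = 0.107, 0.125 and 0.118). Scaling each library to the same sum ended the call of IL6 (limma, adjusted p = 0.0514), with a log2 change of 1.62.

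LIF, which signals through the same receptor subunit, was at 57.46 and 56.96 FPKM in scramble, 108.24 FPKM with hairpin 1 and 57.89 FPKM with hairpin 7. Only the hairpin 1 library was high, and hairpin 7 sat within 1 FPKM of the scramble libraries (log2 change 0.46 ± 0.30, SE, limma, adjusted p = 0.377). AC004264.1, annotated antisense to LIF, was at 2.98, 3.45, 6.12 and 2.07 FPKM in scramble 1, scramble 2, hairpin 1 and hairpin 7.

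The interleukin 1 genes were lower with both hairpins and did not pass. IL1B was at 884.02 and 893.88 FPKM in scramble, 552.26 FPKM with hairpin 1 and 351.88 FPKM with hairpin 7, or 62.1% and 39.6% of the scramble mean (log2 change -1.01 ± 0.23, SE, limma, adjusted p = 0.0884). IL1A was at 964.81 and 971.74 FPKM in scramble, 749.71 FPKM with hairpin 1 and 532.78 FPKM with hairpin 7, or 77.4% and 55.0% of the scramble mean (log2 change -0.61 ± 0.19, SE, limma, adjusted p = 0.135). In each gene hairpin 7 was the lowest library and the groups did not overlap. For every 100 FPKM of IL1A there were 91.6 and 92.0 FPKM of IL1B in scramble, 73.7 with hairpin 1 and 66.0 with hairpin 7.

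**Figure D3:**
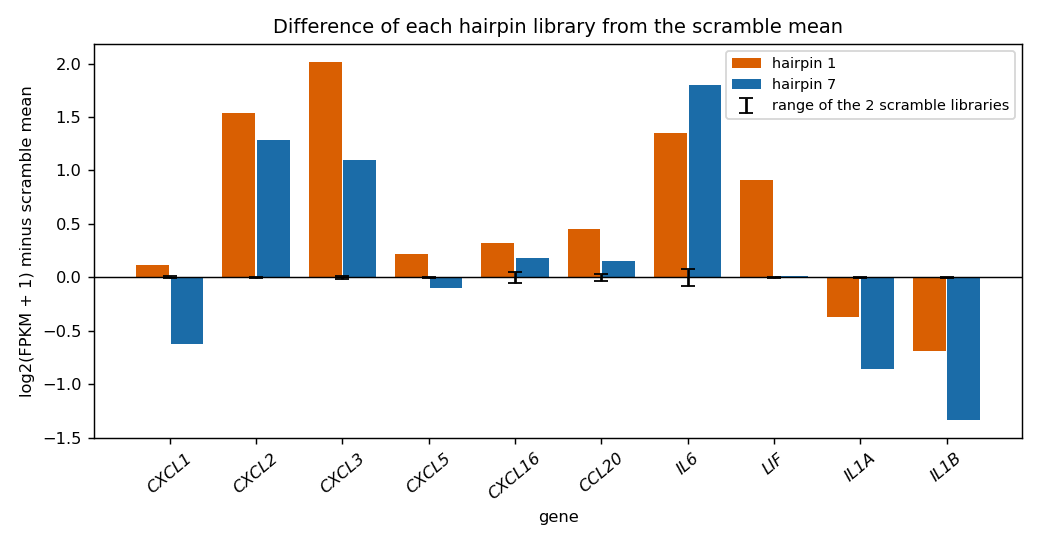
Difference of log2(FPKM + 1) between each hairpin library and the scramble mean for the 10 genes (bars), with the range of the 2 scramble libraries at 0 (black). The bars of CXCL1 and CXCL5 point in opposite directions for the 2 hairpins, and for LIF the hairpin 7 bar is 0.02 against 0.91 with hairpin 1.

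One hairpin at a time against the 2 scramble libraries, more of these genes passed, with the lone hairpin library assumed to vary like the scramble libraries. With hairpin 1, CXCL2, CXCL3, CXCL5, CCL20, IL6 and LIF were higher and IL1A and IL1B lower, 8 of 10 genes, against 22.7% of all genes (limma, adjusted p under 0.05). With hairpin 7, CXCL2, CXCL3 and IL6 were higher and CXCL1, IL1A and IL1B lower, 6 of 10 genes, against 35.3% of all genes. These fits share both scramble libraries. Side by side, the adjusted p of CXCL3 was 0.0098 with hairpin 1 and 0.00783 with hairpin 7, that of IL1B 0.0134 and 0.00687 and that of IL1A 0.0214 and 0.00783 (limma). No test compared the hairpins, which are 1 library each. Conversely, calls were lost for all genes tested, CXCL2, IL6 and NIPBL included, when the scramble libraries were averaged into 1 sample or either was left out. The log2 change of CXCL2 was 1.41 when averaged, 1.41 without scramble 1 and 1.42 without scramble 2.

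The 3′ UTRs were read for AU-rich elements. The pentamer ATTTA, the core of AU-rich elements, was counted in GENCODE 29 (overlapping occurrences counted, sense strand). It occurred in the 3′ UTR of all 10 genes, against 69.8% of the 11250 protein-coding genes tested whose 3′ UTR could be read. At least 3 copies occurred in 9 of the 10, against 42.6% of those 11250 genes. The share was 45.6% among the 6586 with a 3′ UTR between 429 and 3204 bases, the range of the 10 genes. The longer sequence TATTTAT occurred at least 2 times in 8 of the 10, against 13.8% of the 11250 genes and 10.8% of the 6586. CXCL2 held 10 copies of ATTTA in 721 bases, IL6 held 6 in 429 bases, IL1B held 6 in 610 bases and CXCL16 held 1 in 977 bases and no TATTTAT. The densest stretches of at most 30 bases are shown for the genes with at least 3 copies in such a stretch, on GRCh38, with ATTTA in capitals.
CXCL2, chr4:74097590-74097610, strand -: ATTTATTTATTTATTTATTTA
CXCL1, chr4:73870682-73870694, strand +: ATTTATTTATTTA
IL1B, chr2:112830003-112830015, strand -: ATTTATTTATTTA
IL1A, chr2:112774424-112774452, strand -: ATTTAtatatgtATTTAtaaatatATTTA
LIF, chr22:30240522-30240551, strand -: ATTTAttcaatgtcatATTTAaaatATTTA

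These stretches occur in CXCL2, which rose, and in IL1B and IL1A, which were lower in both knockdown libraries. They also occur in CXCL1, whose hairpins lay on opposite sides of scramble, and in LIF, high with hairpin 1 alone. IL6 and CXCL3, high with both hairpins, held at most 2 copies of ATTTA in such a stretch. Any part of these elements in the changes was not tested. Of 15 tested genes for proteins that bind such elements or stem-loops in cytokine messengers, 0 passed (1 higher and 1 lower at an unadjusted p under 0.05; limma), with a median log2 change of -0.14. ZFP36, which speeds the decay of these messengers, was at 24.59 and 26.82 FPKM in scramble, 84.02 FPKM with hairpin 1 and 43.00 FPKM with hairpin 7 (limma, adjusted p = 0.108). HNRNPD had a log2 change of -0.39, KHSRP of -0.26 and TIAL1 of -0.22.

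Of 12 receptor and decoy genes for these signals 6 were tested, and the others were below 1 FPKM in every library. CXCR1, CCR6 and ACKR1 were listed at 0 in all 4 libraries, CXCR2 reached 0.08 FPKM, CXCR6 0.31 FPKM and IL6R 0.48 FPKM. The 6 tested receptor genes had a median log2 change of 0.05, and 0 passed (0 at an unadjusted p under 0.05; limma). IL6ST, the gp130 gene, was at 30.26 and 26.38 FPKM in scramble, 29.77 FPKM with hairpin 1 and 35.98 FPKM with hairpin 7. LIFR was at 10.07 and 10.10 FPKM in scramble, 5.75 FPKM with hairpin 1 and 10.15 FPKM with hairpin 7, and IL1RAP, the accessory chain of the interleukin 1 receptor, at 7.56, 8.08, 3.63 and 7.88 FPKM in the same order. Both of these were low with hairpin 1 alone. The decoy receptor gene IL1R2 was at 9.28 and 9.27 FPKM in scramble, 9.19 FPKM with hairpin 1 and 31.43 FPKM with hairpin 7, so it was high with hairpin 7 alone (log2 change 0.82 ± 0.54, SE, limma, adjusted p = 0.387). IL1R1, at 3.69 ± 0.0566 FPKM in scramble and 5.11 ± 1.56 FPKM with the hairpins, and SIGIRR, at 43.9 ± 4.60 and 41.1 ± 9.10 FPKM (SD, n = 2 each), did not pass (limma, adjusted p = 0.341 and 0.736).

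The antagonist gene IL1RN was at 4.72 and 5.49 FPKM in scramble, 9.38 FPKM with hairpin 1 and 23.73 FPKM with hairpin 7 (log2 change 1.39 ± 0.42, SE, limma, adjusted p = 0.131). Relative to every 100 FPKM of IL1A and IL1B together, IL1RN stood at 0.255 and 0.294 FPKM in scramble, 0.720 with hairpin 1 and 2.68 with hairpin 7. Both hairpins were above scramble in this ratio, hairpin 7 the more so. Of the 6 tested relatives in the IL1 family list 0 passed (1 higher and 2 lower at an unadjusted p under 0.05; limma). Log2 changes (± SE) were -0.45 ± 0.11 for IL18, a related cytokine, -1.11 ± 0.35 for IL37 and 0.96 ± 0.73 for IL36RN. By limma their adjusted p was 0.0936, 0.142 and 0.444. For IL37 the scramble libraries lay far apart, at 5.29 and 2.75 FPKM, while hairpins 1 and 7 gave 0.81 and 1.81 FPKM. IL36RN reached 6.58 FPKM with hairpin 7 but only 0.65 FPKM with hairpin 1, beside 0.74 and 0.91 FPKM in scramble. Hairpin 7 alone thus brought IL36RN into the test.

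Among relatives of IL6 and LIF, 6 of 8 were tested and 0 passed (3 higher and 0 lower at an unadjusted p under 0.05; limma). IL11, another gp130 cytokine gene, was at 0.23 and 0.28 FPKM in scramble, 2.21 FPKM with hairpin 1 and 4.09 FPKM with hairpin 7 (log2 change 1.69 ± 0.29, SE, limma, adjusted p = 0.0587), and it entered the test only through its knockdown level. CLCF1 had a log2 change of 0.78 and CTF1 of 0.52. Of 10 tested genes that carry the gp130 signal 1 fell and 0 rose: PIM1, a kinase gene induced by STAT3, was at 47.34 and 46.46 FPKM in scramble, 28.66 FPKM with hairpin 1 and 27.36 FPKM with hairpin 7 (limma, adjusted p = 0.0388; 0.0615 with no mean trend). STAT3 itself had a log2 change of -0.32 ± 0.10 and the feedback inhibitor gene SOCS3 of 0.58 ± 0.19 (SE, limma, adjusted p = 0.145 and 0.146). The list had a median of 0.01.

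Of 19 other chemokine genes of the CC and CX3C classes 10 were listed at 0 in all libraries and 3 were tested. CCL5, which attracts T cells, fell from 5.38 and 5.41 FPKM in scramble to 1.88 FPKM with hairpin 1 and 1.45 FPKM with hairpin 7 (log2 change -1.27 ± 0.16, SE, limma, adjusted p = 0.0402). CCL28 and CCL2 did not pass, with log2 changes of 0.72 and 0.43. Of 12 other tested cytokine genes 1 rose and 0 fell, with a median of 0.37. The riser was IL23A, a subunit of interleukin 23, at 1.68 and 2.34 FPKM in scramble, 7.04 FPKM with hairpin 1 and 7.43 FPKM with hairpin 7 (log2 change 1.46 ± 0.17, SE, limma, adjusted p = 0.0321). TNFSF15 had a log2 change of 1.84 ± 0.30, CSF1, the macrophage growth factor gene, of -0.90 ± 0.17 and LTB of -1.27 ± 0.34 (SE, limma, adjusted p = 0.0544, 0.0682 and 0.109). Cytokine genes thus lay on both sides of 0, as the 10 genes themselves did.

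Genes that act before and after these signals were described in the same way. Of 12 tested genes for processing and release 1 rose and 0 fell, with a median of 0.24: CASP4, a caspase gene of the inflammasome pathway, was at 78.4 ± 2.52 FPKM in scramble and 130 ± 6.78 FPKM with the hairpins (SD, n = 2 each, limma, adjusted p = 0.0411), a call lost with libraries scaled to the same sum and with no mean trend (adjusted p = 0.0613 and 0.0654). CASP8 had a log2 change of 0.52, the adaptor gene PYCARD of 0.34 and ADAM10, the protease that sheds CXCL16, of -0.41. Of 13 tested genes that carry signals of IL1 and toll-like receptors 0 passed (1 higher and 1 lower at an unadjusted p under 0.05; limma), with a median of -0.04, and PELI1, TOLLIP, MYD88 and IRAK4 had log2 changes of -0.64, 0.65, 0.54 and 0.33. Of 16 tested transcription factors and coregulators 2 rose and 0 fell, with a median of 0.09. These were ATF3, at 14.77 and 15.36 FPKM in scramble and 175.82 and 179.46 FPKM with hairpins 1 and 7, and the AP-1 gene FOS, at 62.53 and 57.49 FPKM in scramble and 338.58 and 325.66 FPKM with hairpins 1 and 7 (limma, adjusted p = 0.00358 and 0.00609). TNFAIP3 had a log2 change of 0.65 and BCL3 of -0.51, and neither passed.

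**Figure D4:**
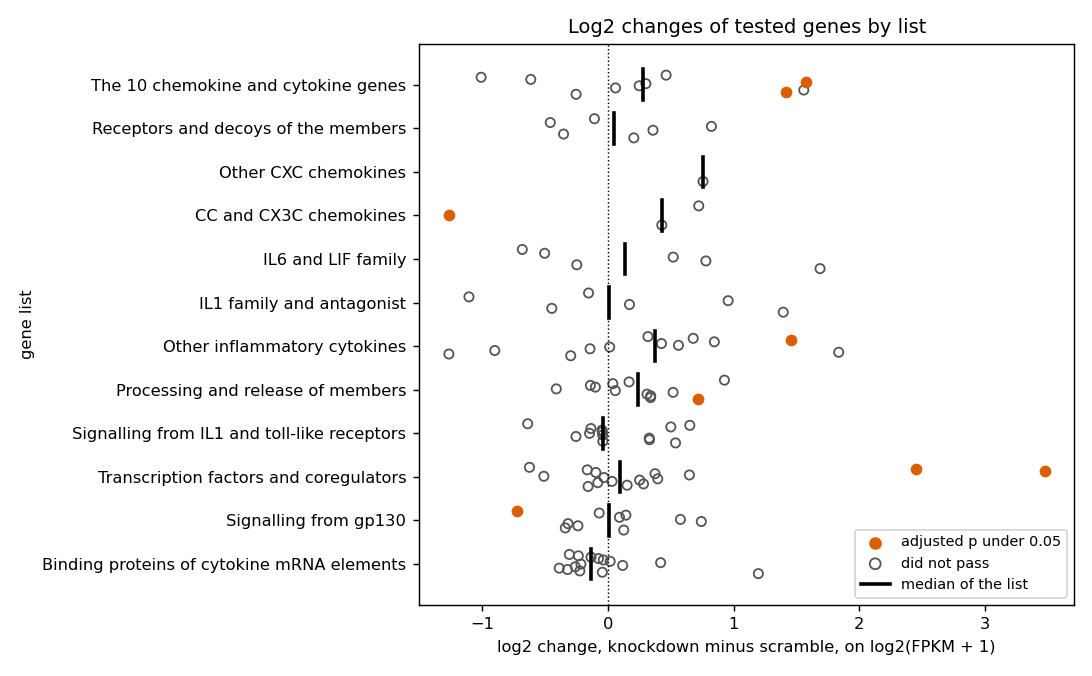
Log2 change, knockdown minus scramble, of each tested gene by list (points; filled where the limma adjusted p is under 0.05) with the list's median (bar). The 10 chemokine and cytokine genes span from -1.01 for IL1B to 1.58 for IL6.

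The positions of the genes allowed their neighbours to be set beside them. CXCL2 (ENSG00000081041) lies at chr4:74097035-74099293 and CXCL3 (ENSG00000163734) at chr4:74036589-74038807, both on the minus strand of GRCh38 in GENCODE 29. CXCL1 (ENSG00000163739) starts 230 kb from the start of CXCL2, CXCL5 starts 101 kb from it, CXCL8 starts 359 kb from it, and MTHFD2L, a gene of mitochondrial folate metabolism, starts 14.9 kb from it on the other side. MTHFD2L was at 10.67 and 10.60 FPKM in scramble, 3.45 FPKM with hairpin 1 and 6.02 FPKM with hairpin 7 (log2 change -1.06 ± 0.24, SE, limma, adjusted p = 0.0868). This gene was thus low in both hairpin libraries, in which CXCL2 was high. Of 14 tested genes in this neighbourhood CXCL2 alone passed. AREG and BTC, growth factor genes further along, had log2 changes of 0.17 and 0.52, and RCHY1 of 0.39. The chemokine genes CXCL6, PF4, PF4V1 and PPBP, which lie among CXCL8, CXCL1 and CXCL5, were at or below 0.14 FPKM in every library.

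IL1A (ENSG00000115008), at chr2:112773915-112784590, and IL1B (ENSG00000125538), at chr2:112829751-112836903, start 52.3 kb apart. Of 17 tested genes of their neighbourhood 2 rose and 0 fell, and neither was an interleukin gene. SLC20A1, a phosphate transporter gene, was at 62.88 and 64.07 FPKM in scramble and 102.90 and 111.30 FPKM with hairpins 1 and 7, and PSD4 at 6.31 and 6.04 FPKM in scramble and 12.29 and 16.30 FPKM with hairpins 1 and 7 (limma, adjusted p = 0.0388 and 0.0494). Both calls were lost with libraries scaled to the same sum (limma, adjusted p = 0.0579 and 0.0738) and with no mean trend (0.0617 and 0.0654). That of PSD4 was also lost with quantile normalization (0.0536) and robust eBayes (0.0520). CKAP2L, IL1A, IL1B and IL37, which follow each other among tested genes, had log2 changes below 0 with both hairpins. IL1RN, PSD4 and PAX8, at the far end, had log2 changes above 0 with both. Tested genes between these runs were below 0 with hairpin 1 and above 0 with hairpin 7. In this neighbourhood both hairpins lay above both scramble libraries for 4 of 17 genes and below both for 7. The shares over all genes tested were 29.5% and 30.8%. POLR1B, a subunit of RNA polymerase I, lay below scramble by a log2 change of -0.83 ± 0.15 and CKAP2L by one of -0.47 ± 0.14 (SE; adjusted p = 0.0628 and 0.127, limma).

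**Figure D5:**
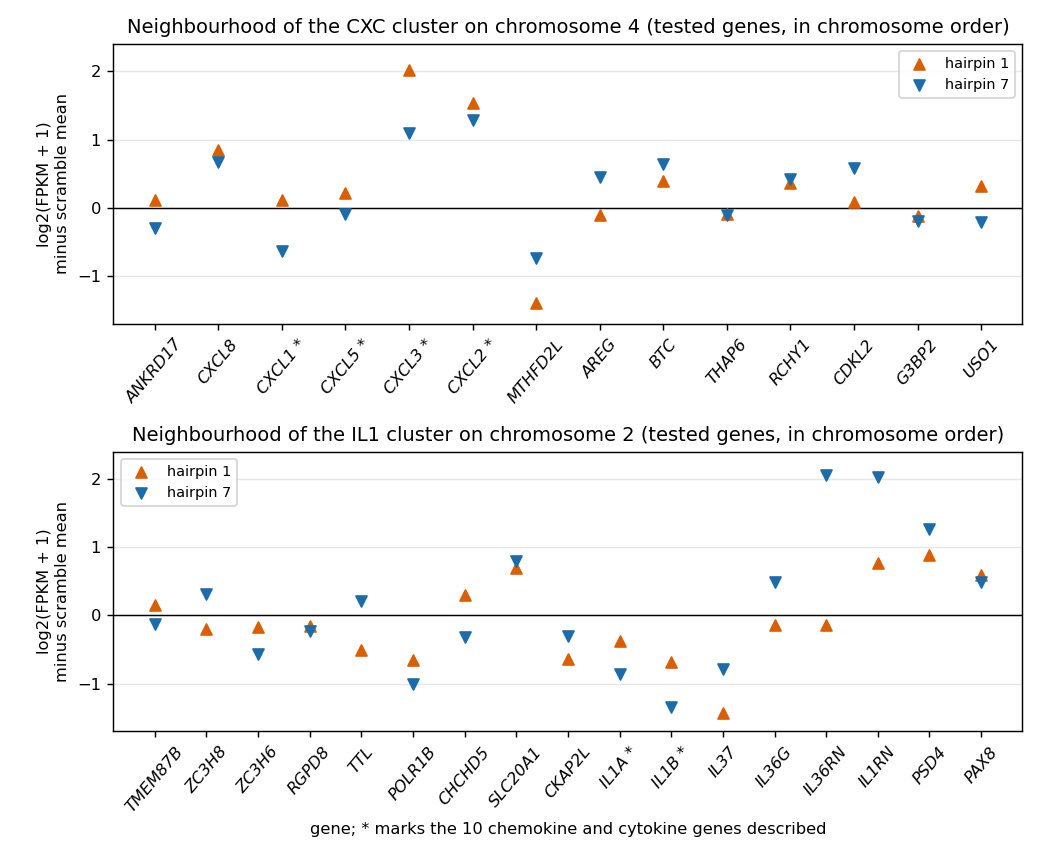
Difference of log2(FPKM + 1) from the scramble mean with hairpin 1 and hairpin 7 for tested genes around the CXC cluster (top) and the IL1 cluster (bottom), in chromosome order. CXCL3 and CXCL2 lie above 1.00 with both hairpins and the next tested gene, MTHFD2L, lies at -1.39 and -0.73.

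Over the 4 libraries, the genes closest to CXCL2 in centred log2(FPKM + 1) were GRAMD1B, PLD1 and PMEPA1, at Euclidean distances of 0.105, 0.119 and 0.128. PMEPA1 was at 119.38 and 112.43 FPKM in scramble, 323.94 FPKM with hairpin 1 and 258.77 FPKM with hairpin 7. For IL6 they were SIK1, C10orf10 and GULP1, at 0.059, 0.142 and 0.156, and SIK1 was at 11.42 and 10.03 FPKM in scramble, 29.67 FPKM with hairpin 1 and 38.59 FPKM with hairpin 7.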

How the data were processed

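RNA sequencing was made from 4 NUGC3 libraries. The authors' deposited values are FPKM per gene with 2 decimals. The submitters' processing notes name STAR and RSEM and give no version. The sources used here give no genome build, annotation, strand setting or filter. Of 344810 rows, 291033 had no gene name and were left out, with between 8.47% and 9.27% of a library's FPKM. Groups came from the labels, and replicate numbers follow sample order and pair nothing.

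The test was limma's (3.58.1, R 4.3.3; lmFit and eBayes, trend on, two-sided) on log2(FPKM + 1), for the 12834 genes whose mean reached 1 FPKM. P-values were adjusted by Benjamini and Hochberg over all of them, with a threshold of 0.05. Log2 changes are knockdown minus scramble, and this scale understates changes of low genes. No exact permutation test was run, as 0.333 is the smallest p it allows with 2 libraries a group. Depth is unknown, so no counting intervals are given.

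The 10 genes and 18 gene lists (237 entries, 1 without a row) were chosen with earlier results of these data known. Named were the 10 genes, NIPBL, receptors, neighbours, and of each other list the genes with an adjusted p under 0.05 and up to 4 with the smallest p; 2 of these are not reported here. The nearest genes were the 3 protein-coding genes at the smallest distance from each of the 10 that passed. Promoters came from RefSeq (GRCh38.p14), positions and transcripts from GENCODE 29. Alignments used Biopython 1.88. In data simulated for this comparison (10 simulations, 200 of 12834 genes changed), changes of 1.5-fold were called in 0.448% of cases, 2-fold changes in 20.7% and 4-fold changes in 74.4%, and false calls averaged 3.4. The simulation gave both groups the same spread. In the real libraries the SD of the log2 difference was 0.282 between scramble libraries and 0.451 between hairpins, so these rates may not hold there. Alternatives changed the pseudocount, filter, scaling, variance model and libraries used.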

Additional observations from a re-analysis of the deposited data

Results flagged for a closer look

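In 10 genes named here the hairpins lay on opposite sides of both scramble libraries, as they did in 19.0% of all genes tested. The difference between hairpins was not tested, since each is 1 library. On the log2(FPKM + 1) scale hairpin 7 minus hairpin 1 was -0.74 for CXCL1 and -0.31 for CXCL5. It was 1.67 for IL1R2, 0.72 for LIFR, 2.20 for IL36RN and -0.44 for SIGIRR. It was -1.39 for S100A8 and -1.04 for S100A9. For the genes annotated across CXCL16 and LIF it was -0.34 for MED11 and -1.21 for AC004264.1. The margin of LIFR above scramble with hairpin 7 was only 0.05 FPKM, and its log2 difference from the scramble mean was 0.0084.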

How the results depend on the processing

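CXCL2 and IL6 passed with a pseudocount of 0.1, a minimum mean of 5 FPKM, quantile normalization, no mean trend and robust eBayes. With the minimum mean of 5 FPKM TNFSF15, PELI1 and CD68 passed as well (limma, adjusted p = 0.0476, 0.0477 and 0.0454). With libraries scaled to the same sum 1 of the 10 genes passed, CXCL2. With no filter on low values 0 of the 10 and 1 of all genes passed, and with the scramble libraries averaged 0 of the 10 and 0 of all genes (975 at an unadjusted p under 0.05; limma). Leaving out 1 library gave between 0 and 8 of the 10 genes and between 0 and 4532 of all genes; calls were 0 without either scramble library (1060 and 1052 at an unadjusted p under 0.05) and rose without either hairpin. The signs of the 10 genes held in these fits except for CXCL1 and CXCL5. Over the fits that leave out 1 library, the log2 change of CXCL1 ranged from -0.63 without hairpin 1 to 0.12 without hairpin 7. CXCL5 ranged from -0.10 without hairpin 1 to 0.22 without hairpin 7. IL1R2 ranged from -0.012 to 1.66, SIGIRR from -0.33 to 0.11, IL36RN from -0.14 to 2.06, AREG from -0.11 to 0.45, S100A8 from -0.98 to 0.40 and S100A9 from -0.59 to 0.46. LIFR ranged from -0.72 to 0.0084 and IL1RAP from -0.93 to 0.0104. In each the ends of the range are the fits without 1 of the hairpins, and AREG was also reversed without scramble 2, at -0.01. The cause was not tested. No paired analysis was possible because the labels give no replicate numbers that groups share.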
